A study of Oryza sativa with 12 samples.

Results

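The protein phosphatase 2C (PP2C) family of rice was followed in panicles of 2 cultivars with and without heat. Members are the genes that the gene table of assembly ASM3414082v1 calls PP2C or OsPP2C with a number, by symbol or synonym. The table held 60 such genes, and 55 of them were paired with a probe set, out of 17905 genes on the array. The other 5 (OsPP2C41, OsPP2C49, OsPP2C50, OsPP2C65 and OsPP2C77) were not analysed here. The 55 genes carried 72 probe sets, 12 genes had more than 1, and each gene is described by the probe set with the highest mean over the 12 arrays.

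Each of the 4 groups had 3 arrays of total RNA from main-tiller panicles. The IR64 heat and N22 heat groups were plants of the cultivars IR64, labelled susceptible to heat, and Nagina 22 (N22), labelled tolerant. They stood in a temperature-controlled facility held 5 °C above ambient, day and night, for 8 days, with plants tagged at booting. The label text puts the start of heat at flowering in one field and at booting in another, so the stage is not settled. The IR64 control and N22 control groups grew in the open field beside the facility, so that heat and growing site cannot be told apart. No group carried a transgene or mutation by its labels, and how many plants went into a sample is not stated in these sources.

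PP2Cs are serine/threonine phosphatases that need a metal ion and act as single subunits. The best known of them in plants, those of clade A, are part of the receptor complex for abscisic acid, a hormone of drought, heat and seed maturation. Without the hormone they hold SnRK2 kinases (called SAPK in rice) dephosphorylated and inactive. When a PYR/PYL/RCAR receptor binds abscisic acid, it docks onto the phosphatase and blocks it, and the kinases go on to phosphorylate bZIP transcription factors. In many plants the genes of clade A are themselves induced by abscisic acid. Other clades act on mitogen-activated protein kinases, immune receptors and further targets, and many members have no assigned role.

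Values are log2 expression values as deposited. A change is the mean of one group minus that of another on this scale, followed by its standard error (SE) from a limma fit to all 29803 probe sets kept. It counts as called where the p adjusted by Benjamini-Hochberg was under 0.05. The 64 reporter probe sets, which have no target in rice, reached 4.20 at most, and this value was taken as the background. By this level 45 of the 55 members were above background on all 12 arrays, 52 on at least 1 array, and 3 (OsPP2C18, OsPP2C32 and OsPP2C51) on none. Of the 55 members, 54 passed the filter on low values and were tested. OsPP2C18, which lay between 2.29 and 2.76, did not pass.

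The groups differed in more than the treatment. The 3′ minus 5′ signal of the GAPDH control probe sets, which grows as RNA is degraded, was 4.79 ± 0.18 (SD, n = 3) in IR64 control and 7.93 ± 0.16 in IR64 heat. The N22 arrays gave 8.59 ± 0.14 without and 8.81 ± 0.17 with heat. The IR64 groups did not overlap (two-sided exact permutation p = 0.1, the smallest that 3 against 3 arrays allow). The same measure for ubiquitin differed by 0.70 between heat and control in IR64 and by -0.175 in N22 (exact p = 0.1 in each). The hybridisation spike-ins, added in equal amounts by the usual protocol, were 0.70 higher in IR64 heat than in IR64 control (exact p = 0.1) and differed by -0.15 between N22 heat and N22 control (exact p = 0.5). The labelling spike-ins, added to the RNA before labelling, were 1.51 higher with heat in IR64 (exact p = 0.1) and 0.18 higher in N22 (exact p = 0.5). Of 13 floral organ genes, 12 were above background in both IR64 groups and N22 heat and 11 in N22 control, and DL was at background in all 4 groups. With heat, 6 of the 13 rose, 4 fell and 3 were not called in IR64, and in N22 these were 10, 1 and 2. Among all genes 29.6% rose and 33.5% fell in each cultivar. The summed linear level of the 13, which the brightest genes weigh on most, was 20107 to 21661 in IR64 control, 16741 to 18266 in IR64 heat, 2491 to 2550 in N22 control and 5201 to 6140 in N22 heat. Of 5 developing-grain genes, 4 (GLUA1, GLUA2, RA17 and RAG2) were at background in both IR64 groups and 0 in N22, with summed levels of 48.8 to 64.4, 1019 to 1075, 85895 to 91603 and 77306 to 82225 in the same order. The sum in IR64 rests on the fifth gene, OsGLU5, whose mean was 4.77 in control and 10.01 in heat, against 4.11 and 7.86 in N22. The annotation also names that gene OsCel9A, the name of a cell wall endoglucanase and not of a seed storage protein, so that the storage protein genes were at background in IR64. The 5 green-tissue genes include LOC4330436 and LOC4337272, which both matched by the name GS2. Whether each of them is a green-tissue gene was not tested. With heat 3 of the 5 rose and 1 fell in IR64, and 4 rose and 1 fell in N22. The 5 summed to 73131 to 77275, 79020 to 83649, 13110 to 14058 and 50069 to 54406, in the same order of groups. The 6 tapetum and anther genes summed to 415 to 455, 397 to 439, 1353 to 1487 and 756 to 769, and CYP703A3, PTC1 and TDR were at background in every group. The part of these differences in the results that follow was not tested, and in whole panicles fewer cells of a type and less RNA per cell cannot be told apart.

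In IR64, heat went with higher levels of many PP2C genes. Of the 54 members tested, 26 rose, 11 fell and 17 were not called. With arrays scaled to the hybridisation spike-ins instead, 4 rose and 25 fell (7.41% and 46.3%, against 4.84% and 65.6% of all genes). The 4 were OsPP2C08, OsPP2C09, OsPP2C31 and OsPP2C68. Over the whole table, 51.8% of probe sets were called, 24.2% up and 27.5% down. Among genes with 1 probe set each, 63.1% were called, 29.6% up and 33.5% down, against 68.5%, 48.1% and 20.4% of the members. The members' median change was 0.24, against a median of -0.0042 over the 16065 genes. All 37 members called had no overlap between the 3 heat and the 3 control arrays, and 61.6% of all genes were called without overlap. With values raised to background, 11 of 51 members rose and 2 fell at least 2-fold, 21.6% and 3.92%, against 7.55% and 12.3% of all genes.

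In N22, more members fell than rose. There were 10 rises, 20 falls and 24 members not called, and with scaling to the spike-ins 8 rises and 8 falls (14.8% each, against 24.9% and 12.2% of all genes). The whole table had 51.7% of probe sets called, 23.9% up and 27.8% down, and the genes had 63.1% called, 29.6% up and 33.5% down, against 55.6%, 18.5% and 37% of the members. The members' median change was -0.11. All 30 members called had no overlap between heat and control arrays, and 61.9% of all genes were called without overlap. With values raised to background, at least 2-fold changes were 1 rise (OsPP2C01) and 3 falls (OsPP2C13, OsPP2C16 and OsPP2C21) among 51 members, or 1.96% and 5.88% against 13.4% and 6.23% of all genes.

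**Figure D1:**
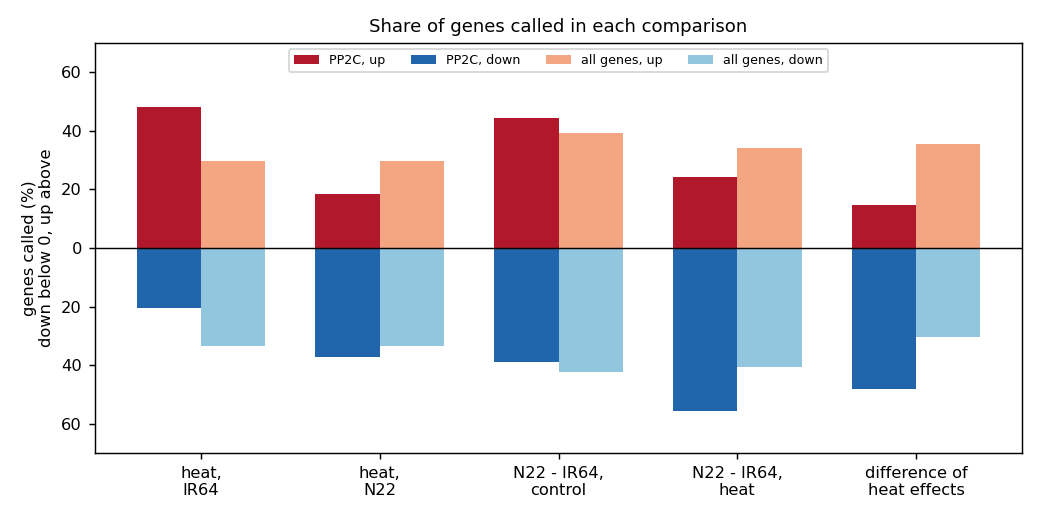
Share of genes called up (bars above 0, in percent) and down (bars below 0) in each of 5 comparisons, for the 54 PP2C members and for all 16065 genes with 1 probe set each, on the deposited scale. In IR64 heat 48.1% of members were up and 20.4% down, in N22 heat 18.5% and 37%. Scaled to the hybridisation spike-ins, the members' split turns to 4 up and 25 down in IR64 (all genes 4.84% and 65.6%), to 8 and 8 in N22 (24.9% and 12.2%), to 13 and 28 between cultivars in control (18.9% and 55.6%), to 14 and 15 in heat (33.1% and 23.5%) and to 18 up and 5 down for the difference of the heat effects (56.8% and 3.27%).

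The heat effects of the cultivars, which rest on separate arrays, were compared by an interaction contrast. The effect was lower in N22 than in IR64 for 26 members and higher for 8, with 20 not called. With scaling to the spike-ins it was lower for 5 and higher for 18 (9.26% and 33.3%, against 3.27% and 56.8% of all genes). The whole table had 55.4% of probe sets called, 29.3% up and 26.1% down. Among all genes 65.7% were called, 35.5% up and 30.2% down, against 63.0%, 14.8% and 48.1% of the members. The members' median difference was -0.35, and the median of all genes was 0.033. With that scaling the median over the whole table, near 0 on the deposited scale, was 0.85 in this contrast, -0.70 in IR64 heat and 0.14 in N22 heat. The members' medians were then 0.50, -0.46 and 0.05. The scaling moves every gene of an array by the same amount, so that the distance of a member from the table median stays as it was by construction.

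**Figure D2:**
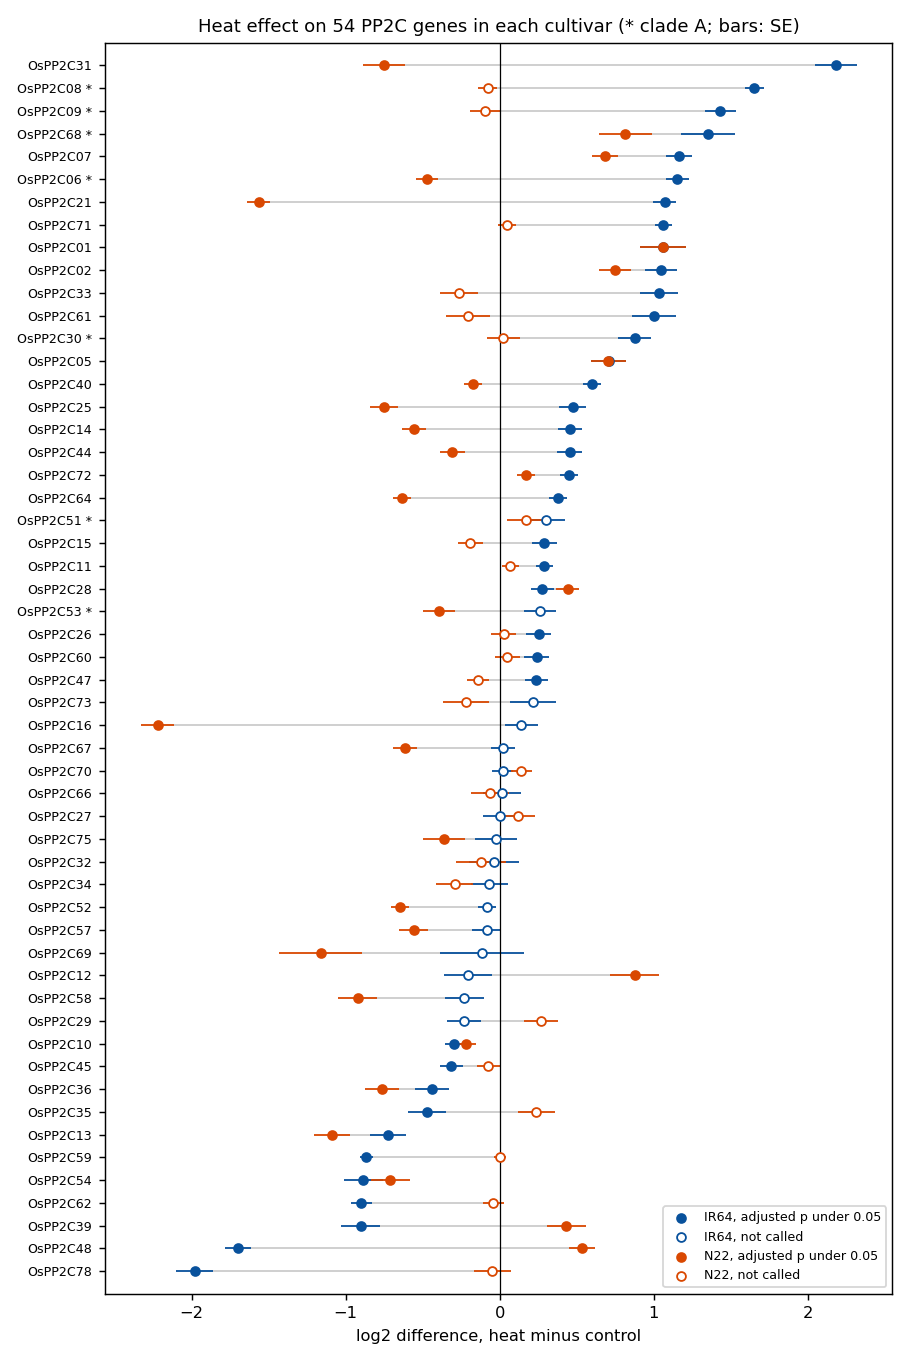
Heat minus control (log2) for the 54 tested PP2C members in IR64 (blue) and N22 (orange), with bars for the SE and open symbols for adjusted p of 0.05 or more. On the deposited scale the blue points lie to the right of 0 for 34 members and the orange points for 21, and scaling to the spike-ins moves all blue points 0.70 to the left and all orange points to the right, giving 4 rises and 25 falls in IR64 and 8 of each in N22.

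Clade A was represented by 7 of the 10 genes usually placed in it: OsPP2C06, OsPP2C08, OsPP2C09, OsPP2C30, OsPP2C51, OsPP2C53 and OsPP2C68. In IR64 heat 5 of the 7 rose, 0 fell and 2 (OsPP2C51 and OsPP2C53) were not called, with a median change of 1.15. Among all genes 63.1% were called and 29.6% up, and of the 47 other members tested 68.1% were called, 21 up and 11 down. In N22 heat OsPP2C68 rose, OsPP2C06 and OsPP2C53 fell and the other 4 were not called, with a median of -0.08. Among all genes 29.6% rose and 33.5% fell there. The heat effect was lower in N22 for 5 of the 7 and higher for 0, with a median difference of -0.85. It was lower for 30.2% of all genes and higher for 35.5%. With scaling to the spike-ins, OsPP2C08, OsPP2C09 and OsPP2C68 rose in IR64, OsPP2C68 alone in N22, and 2 of the 7 had a called difference, lower in N22. Under that scaling 4.84% of all genes rose in IR64 and 24.9% in N22, and the difference was lower for 3.27% and higher for 56.8%.

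OsPP2C08 (LOC4324182) had the largest rise of the clade in IR64. It measured 7.68, 7.85 and 7.64 in IR64 control and 9.40, 9.43 and 9.31 in IR64 heat. In N22 it measured 9.09, 9.09 and 9.11 in control and 8.98, 9.01 and 9.08 in heat. The heated IR64 arrays thus stood above all others, and the heated N22 arrays lay just below the N22 control arrays. The change was 1.65 ± 0.06 in IR64 (adjusted p = 9.1e-09, limma) and -0.08 ± 0.06 in N22 (adjusted p = 0.35), and their difference was -1.73 ± 0.09 (adjusted p = 1.1e-07). N22 was 2.59-fold higher than IR64 in control and 1.28-fold lower in heat, and the latter call was lost when arrays were scaled to the spike-ins (-0.10, adjusted p = 0.74).

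OsPP2C06 (LOC4324201), an ABI-like phosphatase, moved in opposite directions. Its values were 8.18, 8.30 and 8.35 in IR64 control and 9.49, 9.31 and 9.49 in IR64 heat. They were 9.71, 9.83 and 9.77 in N22 control and 9.21, 9.37 and 9.31 in N22 heat. Control IR64 stood below the other 3 groups, and the heated groups of the cultivars overlapped. It rose by 1.15 ± 0.07 in IR64 (adjusted p = 3.8e-07) and fell by 0.47 ± 0.07 in N22 (adjusted p = 0.00028), a difference of -1.63 ± 0.10 (adjusted p = 5.2e-07). Neither heat effect was called with scaling to the spike-ins (0.45 in IR64, adjusted p = 0.082, and -0.32 in N22, adjusted p = 0.38). In heat the cultivars differed by -0.14 ± 0.07 (adjusted p = 0.13), and by -0.20 (adjusted p = 0.039) without IR64 heat replicate 2.

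OsPP2C09 (LOC4327465), a clade A member studied in growth and abscisic acid responses, measured 8.67, 8.41 and 8.34 in IR64 control and 9.83, 9.86 and 10.01 in IR64 heat. The N22 arrays gave 8.92, 8.91 and 8.97 in control and 8.92, 8.67 and 8.93 in heat. Here only the IR64 groups separated by treatment, with a rise of 1.43 ± 0.10 (adjusted p = 7.7e-07) against -0.10 ± 0.10 in N22 (adjusted p = 0.48). The difference was -1.53 ± 0.14 (adjusted p = 7.0e-06), and -0.67 (adjusted p = 0.079) with scaling to the spike-ins. N22 was higher in control by 0.46 ± 0.10, which turned to -0.13 under that scaling, and lower in heat by 1.06 ± 0.10 (difference -1.06).

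OsPP2C30 (LOC4332374), whose product binds a PYL/RCAR receptor and the kinase SAPK2, was lower in N22 throughout. IR64 gave 9.28, 9.11 and 8.90 in control and 9.93, 10.08 and 9.92 in heat. N22 gave 7.95, 8.06 and 7.73 in control and 7.98, 7.92 and 7.91 in heat. No N22 array reached any IR64 array. The rise in IR64 was 0.88 ± 0.11 (adjusted p = 5.1e-05), or 0.18 (adjusted p = 0.51) with scaling to the spike-ins, and the change in N22 was 0.02 ± 0.11. The difference of the heat effects, -0.85 ± 0.15 (adjusted p = 0.00071), became 0.00083 under that scaling. N22 was 2.27-fold lower in control and 4.11-fold lower in heat.

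OsPP2C53 (listed as PP2C53), a second ABI-like gene, measured 7.66, 7.89 and 7.77 in IR64 control and 8.15, 8.02 and 7.94 in IR64 heat. Its N22 values were 7.27, 7.02 and 7.05 in control and 6.56, 6.73 and 6.87 in heat. In both cultivars the heat and control arrays separated, upwards in IR64 and downwards in N22. The IR64 change of 0.26 ± 0.10 had an adjusted p of 0.056 and was called without IR64 control replicate 2 (0.32, adjusted p = 0.043), N22 control replicate 1 (adjusted p = 0.043), N22 heat replicate 1 (adjusted p = 0.044) or N22 heat replicate 3 (adjusted p = 0.047). In N22 it fell by 0.39 ± 0.10 (adjusted p = 0.0088), or -0.24 (adjusted p = 0.56) with scaling to the spike-ins. The difference was -0.65 ± 0.15 (adjusted p = 0.0032), and 0.20 under that scaling.

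OsPP2C68 (listed as PP2C68, also known as a stress-induced PP2C) rose in both cultivars. It read 5.56, 5.27 and 5.22 in IR64 control and 6.89, 6.54 and 6.67 in IR64 heat. N22 control gave 3.57, 4.06 and 3.50, all below background, and N22 heat 4.37, 4.41 and 4.80, all just above it. The rise was 1.35 ± 0.17 in IR64 (adjusted p = 7.9e-05) and at least 1.25-fold in N22 (adjusted p = 0.0025). The heat effects differed by -0.53 ± 0.25 (adjusted p = 0.091), by -1.03 (adjusted p = 0.00037) with values raised to background, and by -0.67 (adjusted p = 0.041) without N22 heat replicate 3. N22 was at least 2.21-fold lower in control and 4.51-fold lower in heat. OsPP2C51 (LOC4339671), a promoter of seed germination, lay between 2.59 and 3.52 on all 12 arrays, below background, and no fold is given for it.

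**Figure D3:**
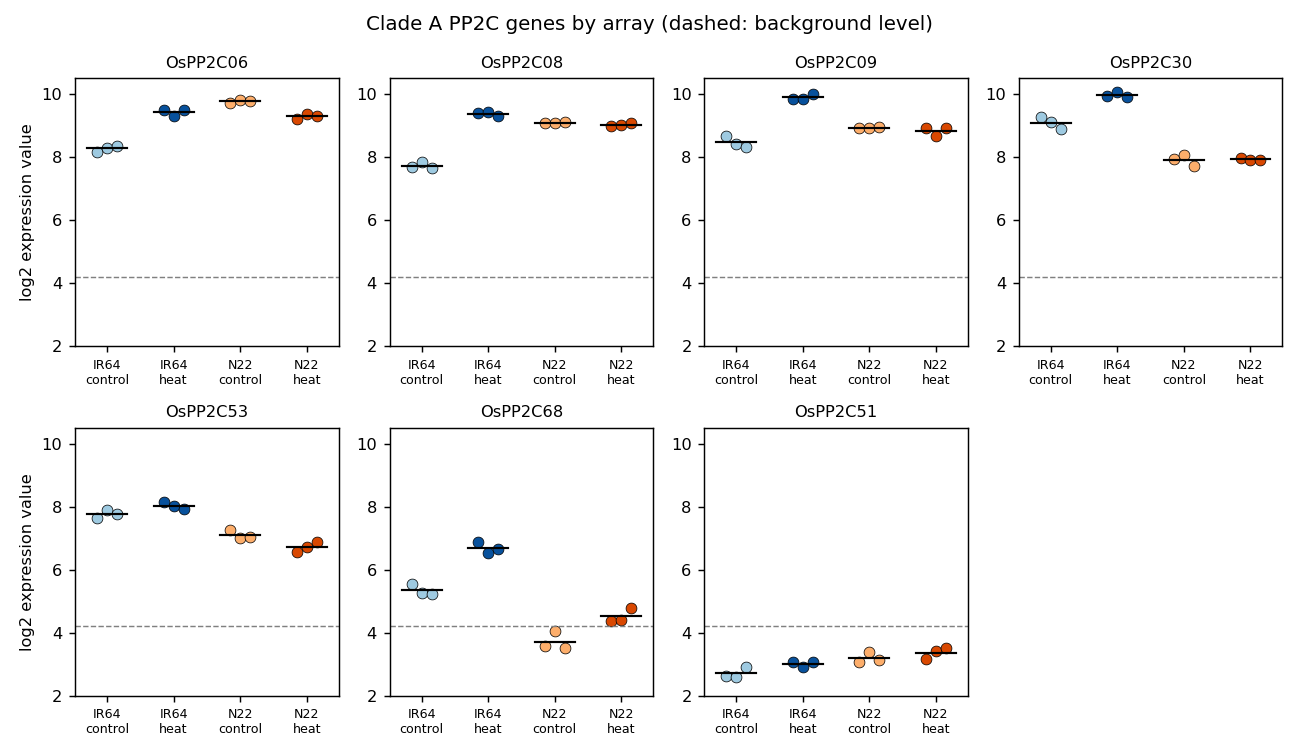
Log2 expression value of the 7 clade A genes on each of the 12 arrays, by group, with a line at each group mean and the background level of 4.20 dashed. OsPP2C06, OsPP2C08 and OsPP2C09 show IR64 control below the other 3 groups, OsPP2C30 and OsPP2C53 show both N22 groups below both IR64 groups, and OsPP2C51 stays below the dashed line. Under spike-in scaling the control difference between cultivars turned to -0.13 for both OsPP2C09 and OsPP2C51.

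Besides OsPP2C06, 7 members outside clade A rose in IR64 heat and fell in N22 heat. The 8 members are 14.8% of the 54, against 9.09% of all genes with this pattern, and all 8 had a called difference of the heat effects. The reverse pattern was found for 2 members (OsPP2C39 and OsPP2C48), 3.70% against 8.87% of all genes. The same direction in both cultivars was found for 7 rises (13% against 12.3%) and 4 falls (7.41% against 12.1%).

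OsPP2C31 (LOC4332406), with no role assigned here, had the largest measured difference, which rests on IR64 control values below background. It measured 2.38, 2.75 and 2.29 in IR64 control, below background, and 4.55, 4.69 and 4.73 in IR64 heat. N22 gave 9.37, 9.16 and 9.32 in control and 8.41, 8.79 and 8.42 in heat. The gene was thus at or near background in IR64 and far above it on all 6 N22 arrays. It rose at least 1.37-fold in IR64 (adjusted p = 3.6e-07) and fell by 0.75 ± 0.14 in N22 (adjusted p = 0.00092). The difference of -2.93 ± 0.19 (adjusted p = 6.9e-07) shrank to -1.20 (adjusted p = 1.6e-05) with values raised to background. N22 was at least 33.9-fold higher in control and 14.8-fold higher in heat.

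OsPP2C21 (LOC4329930) is read by a probe set whose probes may match other transcripts. Its values were 6.60, 6.50 and 6.42 in IR64 control, 7.53, 7.60 and 7.61 in IR64 heat, 8.51, 8.68 and 8.62 in N22 control and 7.16, 6.93 and 7.02 in N22 heat. The 4 groups did not overlap, and the cultivar order was turned by heat. It rose by 1.07 ± 0.07 in IR64 (adjusted p = 8.3e-07), fell by 1.57 ± 0.07 in N22 (adjusted p = 6.5e-08) and differed by -2.64 ± 0.11 (adjusted p = 2.3e-08). The IR64 rise was not called with scaling to the spike-ins.

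The other 5 of this pattern were OsPP2C14, OsPP2C25, OsPP2C40, OsPP2C44 and OsPP2C64. Their rises in IR64 ran from 0.38 (OsPP2C64) to 0.60 (OsPP2C40) and their changes in N22 from -0.75 (OsPP2C25) to -0.17 (OsPP2C40). The spike-in scaling lowers each IR64 change by 0.70, so that all 5 IR64 changes turn negative under it. OsPP2C40, described as a negative regulator of salt and osmotic stress tolerance, went from a mean of 8.75 to 9.35 in IR64 and from 9.92 to 9.75 in N22. Its N22 fall was not called with quantile normalisation (-0.15, adjusted p = 0.078).

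OsPP2C48 (LOC4338531) moved the opposite way. It measured 8.90, 8.91 and 9.07 in IR64 control and 7.34, 7.2 and 7.25 in IR64 heat. In N22 it gave 6.29, 6.39 and 6.27 in control and 7.03, 6.79 and 6.73 in heat. Every IR64 array stood above every N22 array, and heat brought the cultivars closer. It fell by 1.70 ± 0.08 in IR64 (adjusted p = 6.8e-08) and rose by 0.53 ± 0.08 in N22 (adjusted p = 0.00037), a difference of 2.23 ± 0.12 (adjusted p = 1.7e-07).

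OsPP2C39 (LOC9271405, a shared probe set) had 8.64, 8.79 and 8.78 in IR64 control, 8.06, 7.71 and 7.72 in IR64 heat, 5.40, 5.32 and 5.43 in N22 control and 5.81, 5.57 and 6.07 in N22 heat. All IR64 values were well above all N22 values. It fell by 0.90 ± 0.13 in IR64 (adjusted p = 0.00016), rose by 0.43 ± 0.13 in N22 (adjusted p = 0.016) and differed by 1.34 ± 0.18 (adjusted p = 0.00012). The N22 rise was not called with quantile normalisation (0.24, adjusted p = 0.13).

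Another 11 members rose in IR64 and were not called in N22. They include OsPP2C08, OsPP2C09 and OsPP2C30, described above, OsPP2C61 and OsPP2C71, and 6 others whose IR64 changes ran from 0.24 to 1.03. With scaling to the spike-ins, OsPP2C08 and OsPP2C09 alone of these 11 were called up in IR64. OsPP2C61 (LOC4342246) measured 4.89, 4.87 and 4.95 in IR64 control and 6.0, 5.66 and 6.06 in IR64 heat. Its N22 values, 3.73, 4.01 and 4.19 in control and 3.73, 3.61 and 3.97 in heat, were all below background. It rose by 1.0 ± 0.14 in IR64 (adjusted p = 0.00016), and N22 was at least 1.63-fold lower in control and at least 3.26-fold lower in heat.

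A further 5 members fell in IR64 and were not called in N22: OsPP2C35, OsPP2C45, OsPP2C59, OsPP2C62 and OsPP2C78. OsPP2C78 (LOC4352638) had the largest fall of the family in IR64. Its values were 9.08, 8.91 and 8.95 in IR64 control, 6.79, 7.13 and 7.08 in IR64 heat, 4.85, 5.14 and 5.14 in N22 control and 5.19, 4.88 and 4.92 in N22 heat. The N22 groups overlapped, while the IR64 groups stood far apart. It fell by 1.98 ± 0.12 (adjusted p = 3.1e-07) against -0.05 ± 0.12 in N22 (adjusted p = 0.83), a difference of 1.93 ± 0.17 (adjusted p = 5.5e-06).

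OsPP2C62 (LOC4343331) fell from 7.60, 7.39 and 7.53 to 6.65, 6.65 and 6.54 in IR64, and measured 6.30, 6.46 and 6.36 in N22 control and 6.32, 6.37 and 6.30 in N22 heat. The fall of 0.90 ± 0.07 (adjusted p = 1.4e-06) stood against -0.04 ± 0.07 in N22 (difference 0.86 ± 0.09, adjusted p = 2.8e-05). OsPP2C59 (LOC4341949) was above background in IR64 control alone, at 4.99, 4.89 and 4.92, and read 4.06 on the other 9 arrays. It was at least 1.66-fold lower in IR64 heat (adjusted p = 4.4e-08), and the difference of the heat effects was 0.87 ± 0.06 (adjusted p = 7.0e-07). With values raised to background the difference was 0.73 (adjusted p = 3.1e-06). OsPP2C35 (LOC4334600), the phosphatase that acts on the immune receptor kinase XA21, fell by 0.47 ± 0.12 in IR64 (adjusted p = 0.0076) and differed by 0.71 ± 0.17 between the cultivars (adjusted p = 0.0051).

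In N22, 8 members fell that were not called in IR64: OsPP2C53, OsPP2C16, OsPP2C57, OsPP2C58, OsPP2C69, OsPP2C52, OsPP2C67 and OsPP2C75. OsPP2C16 (LOC107276004) had the largest fall. It measured 7.23, 7.07 and 7.27 in IR64 control, 7.34, 7.13 and 7.52 in IR64 heat, 5.67, 5.73 and 5.67 in N22 control and 3.33, 3.42 and 3.65 in N22 heat. The IR64 groups overlapped, and the heated N22 arrays lay below background. It was at least 2.80-fold lower in N22 heat (adjusted p = 8.0e-08), and N22 was at least 8.75-fold lower than IR64 in heat. The difference of the heat effects was -2.36 ± 0.15 (adjusted p = 6.6e-07), or -1.62 (adjusted p = 5.5e-07) with values raised to background.

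OsPP2C58 (LOC4341693) measured 8.47, 8.48 and 8.42 in IR64 control, 8.40, 8.12 and 8.17 in IR64 heat, 9.56, 9.04 and 9.22 in N22 control and 8.20, 8.43 and 8.42 in N22 heat. Control N22 stood above the other 3 groups, and the fall in N22 was 0.92 ± 0.13 (adjusted p = 0.00014). OsPP2C69 (LOC4347278) was above background on 2 of its 12 arrays, at 4.65 and 4.43 in N22 control, where the third gave 3.46. Its other groups ran from 2.29 to 3.32, and its call in N22 heat (adjusted p = 0.0045) was lost when the N22 arrays were fitted alone (adjusted p = 0.055). OsPP2C52, OsPP2C67 and OsPP2C75 changed by -0.65 ± 0.06, -0.62 ± 0.08 and -0.36 ± 0.14 in N22. OsPP2C12 (LOC4328768, a shared probe set) was the 1 member that rose in N22 and was not called in IR64. It measured 5.94, 5.97 and 6.23 in IR64 control, 5.87, 5.79 and 5.85 in IR64 heat, 3.73, 3.94 and 3.69 in N22 control, below background, and 4.89, 4.25 and 4.85 in N22 heat. It rose at least 1.37-fold in N22 (adjusted p = 0.00083), and the heat effects differed by 1.08 ± 0.22 (adjusted p = 0.0019). With values raised to background the difference was 0.67 (adjusted p = 0.012).

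**Figure D4:**
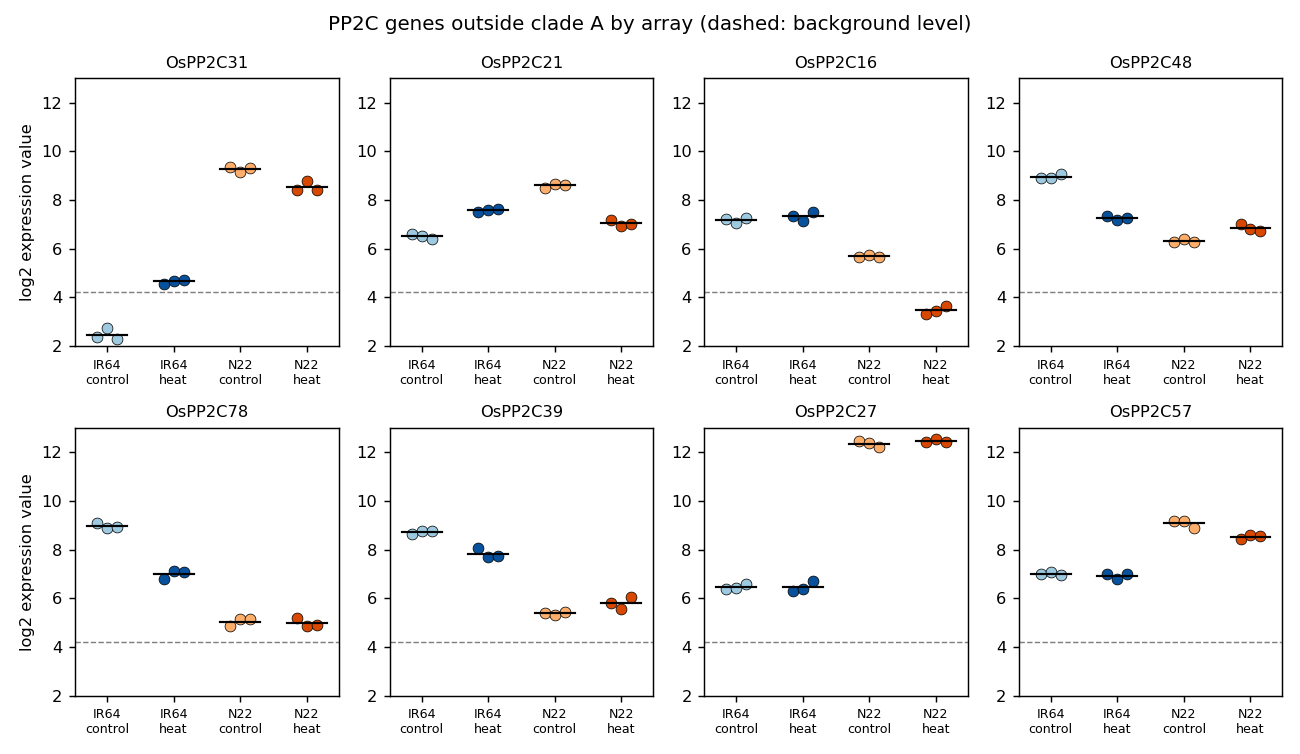
Log2 expression value of 8 PP2C genes outside clade A on each of the 12 arrays, by group, with a line at each group mean and the background level of 4.20 dashed. OsPP2C31 and OsPP2C21 move up with heat in IR64 and down in N22, OsPP2C48 and OsPP2C39 the opposite way, and OsPP2C27 lies between 6.32 and 6.73 on the IR64 arrays and between 12.23 and 12.53 on the N22 arrays.

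The 7 members that rose in both cultivars were OsPP2C01, OsPP2C02, OsPP2C05, OsPP2C07, OsPP2C28, OsPP2C68 and OsPP2C72. With scaling to the spike-ins, OsPP2C68 alone of these 7 was called up in IR64. OsPP2C01 (LOC4324414) went from 5.73, 5.80 and 5.48 to 6.95, 6.46 and 6.80 in IR64 and from 5.33, 5.17 and 5.31 to 6.36, 6.08 and 6.55 in N22. Its rise was 1.06 ± 0.15 in each cultivar (adjusted p = 0.00016 in both), and the difference was -0.0014 ± 0.21. The spike-in scaling lowers each IR64 change by 0.70 and raises each N22 change, so that those of OsPP2C01 are not equal under it. OsPP2C07 (LOC9269413) went from 6.89, 6.84 and 6.79 to 8.00, 7.90 and 8.11 in IR64 and from 5.93, 6.21 and 6.24 to 6.84, 6.83 and 6.77 in N22. The rise was 1.16 ± 0.09 in IR64 and 0.69 ± 0.09 in N22, a called difference of -0.48 ± 0.12 (adjusted p = 0.0068), and the IR64 rise was not called with scaling to the spike-ins (0.46, adjusted p = 0.076).

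OsPP2C02 (LOC4326717) measured 7.33, 7.07 and 7.41 in IR64 control, 8.29, 8.37 and 8.30 in IR64 heat, 6.83, 7.07 and 7.01 in N22 control and 7.77, 7.56 and 7.82 in N22 heat. OsPP2C05 (LOC4325851) measured 9.18, 9.03 and 9.11, then 9.67, 9.96 and 9.82, 7.90, 7.83 and 7.97, and 8.55, 8.41 and 8.85 in the same order of groups. Heat and control arrays were apart in each cultivar for both genes. The changes were 1.05 ± 0.10 in IR64 and 0.75 ± 0.10 in N22 for OsPP2C02, and 0.71 ± 0.11 in each cultivar for OsPP2C05. OsPP2C28 and OsPP2C72 rose by 0.28 ± 0.08 and 0.45 ± 0.06 in IR64 and by 0.44 ± 0.08 and 0.17 ± 0.06 in N22. The spike-in scaling turns the IR64 changes of OsPP2C28 and OsPP2C72 negative.

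The 4 members that fell in both were OsPP2C10, OsPP2C13, OsPP2C36 and OsPP2C54. OsPP2C13 (LOC4328913), a mitochondrial phosphatase studied in cytoplasmic male sterility, measured 6.13, 5.96 and 6.35 in IR64 control, 5.34, 5.31 and 5.61 in IR64 heat, 7.0, 6.98 and 6.75 in N22 control and 5.73, 5.83 and 5.91 in N22 heat. Heat and control did not overlap in either cultivar, and it fell by 0.73 ± 0.12 in IR64 and by 1.09 ± 0.12 in N22, with adjusted p = 0.091 for the difference. With quantile normalisation the difference was called, at -0.67 (adjusted p = 0.0043), as was that of OsPP2C36, at -0.65 (adjusted p = 0.0039). OsPP2C54 (LOC4340303) went from 8.47, 8.64 and 8.38 to 7.92, 7.39 and 7.52 in IR64 and from 8.98, 8.96 and 9.15 to 8.35, 8.33 and 8.29 in N22, changes of -0.89 ± 0.12 and -0.71 ± 0.12. OsPP2C36 (LOC4334678) went from 6.19, 6.08 and 6.42 to 5.82, 5.77 and 5.77 in IR64 and from 6.32, 6.43 and 6.25 to 5.75, 5.34 and 5.61 in N22, changes of -0.44 ± 0.11 and -0.77 ± 0.11. OsPP2C10 had the smallest changes of the 4, -0.29 ± 0.06 and -0.22 ± 0.06.

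The remaining 8 tested members were not called under heat in either cultivar: OsPP2C27, OsPP2C29, OsPP2C32, OsPP2C34, OsPP2C51, OsPP2C66, OsPP2C70 and OsPP2C73. Their changes ran from -0.29 to 0.30. OsPP2C34, a gene first described as induced by a chemical activator of defence, measured means of 7.94 and 7.87 in IR64 and 7.78 and 7.49 in N22.

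Between cultivars, members were called about as often as genes at large. In control, 24 members were higher in N22, 21 lower and 9 not called, and with scaling to the spike-ins 13 were higher and 28 lower (24.1% and 51.9%, against 18.9% and 55.6% of all genes). Over the whole table, 70.6% of probe sets were called, 35.1% up and 35.6% down, and all genes had 81.4% called, 39.3% up and 42.1% down, against 83.3%, 44.4% and 38.9% of the members. In heat, 13 were higher in N22, 30 lower and 11 not called, and with that scaling 14 were higher and 15 lower (25.9% and 27.8%, against 33.1% and 23.5% of all genes). There 63.1% of probe sets were called, 29.6% up and 33.5% down, and all genes had 74.4% called, 34.0% up and 40.5% down, against 79.6%, 24.1% and 55.6% of the members. The median difference was 0.08 in control and -0.35 in heat. Over the 51 members kept by a filter at the background level, the control median was -0.06, with or without values raised to background. With the spike-in scaling the members' medians were -0.52 and -0.10, beside -0.60 and 0.24 over the whole table.

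Taking both treatments, whose arrays are separate, 20 members (37%) were lower in N22 both times and 13 (24.1%) higher both times, against 29.9% and 26.3% of all genes. The 13 include OsPP2C51, which was below background on all 12 arrays. OsPP2C08, OsPP2C09, OsPP2C14, OsPP2C21 and OsPP2C71 were higher in N22 in control and lower in heat (9.26% of the members against 4.53% of all genes), and 0 members turned the other way (3.80% of all genes). Each heat effect shares its control arrays with the control comparison and its heat arrays with the heat comparison, so these values and the heat effects are not separate evidence.

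OsPP2C27 (LOC4331028) showed the widest gap above background. This phosphatase acts on a mitogen-activated protein kinase and has been described as a negative regulator of cold tolerance. It measured 6.40, 6.41 and 6.61 in IR64 control and 6.32, 6.37 and 6.73 in IR64 heat. N22 gave 12.45, 12.38 and 12.23 in control and 12.44, 12.53 and 12.44 in heat. Heat and control overlapped in each cultivar, and the cultivars stood far apart. N22 was higher by 5.88 ± 0.11 in control (58.9-fold, adjusted p = 1.3e-11) and by 6.0 ± 0.11 in heat (63.9-fold, adjusted p = 1.5e-11). The heat effects differed by 0.12 ± 0.15 (adjusted p = 0.55).

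Other members higher in N22 in both treatments included OsPP2C57 and OsPP2C29. OsPP2C57 (LOC4341433) measured 7.0, 7.08 and 6.94 in IR64 control, 6.99, 6.79 and 6.99 in IR64 heat, 9.18, 9.18 and 8.91 in N22 control and 8.42, 8.61 and 8.56 in N22 heat. OsPP2C29 (LOC4332004) measured 5.66, 5.51 and 5.19, then 5.27, 5.16 and 5.24, 6.97, 7.06 and 7.19, and 7.30, 7.41 and 7.30 in that order. For both genes all 6 N22 arrays stood above all 6 IR64 arrays. N22 was 4.24-fold higher in control and 3.05-fold in heat for OsPP2C57, and 3.06-fold and 4.32-fold for OsPP2C29. OsPP2C29 was not called under heat in either cultivar, yet its heat effects differed by 0.50 ± 0.15 (adjusted p = 0.020). With quantile normalisation that difference was 0.22 and not called (adjusted p = 0.23).

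At the other end, OsPP2C78 was 15.3-fold lower in N22 in control and 4.02-fold lower in heat. OsPP2C39 was 10.2-fold and 4.04-fold lower, and OsPP2C48 was 6.25-fold and 1.33-fold lower. OsPP2C12 was at least 3.58-fold lower in control and 2.26-fold lower in heat. For all 4 the gap was smaller in heat than in control, and the difference of the heat effects was called. These 4 were picked as the lowest in N22 in control, and that contrast holds the same control arrays. The choice therefore favours a smaller gap in heat, and the call is not separate evidence of it. OsPP2C16, OsPP2C68, OsPP2C61 and OsPP2C30, picked as the lowest in heat, had the wider gap in heat. For OsPP2C30 it was -1.19 in control and -2.04 in heat.

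**Figure D5:**
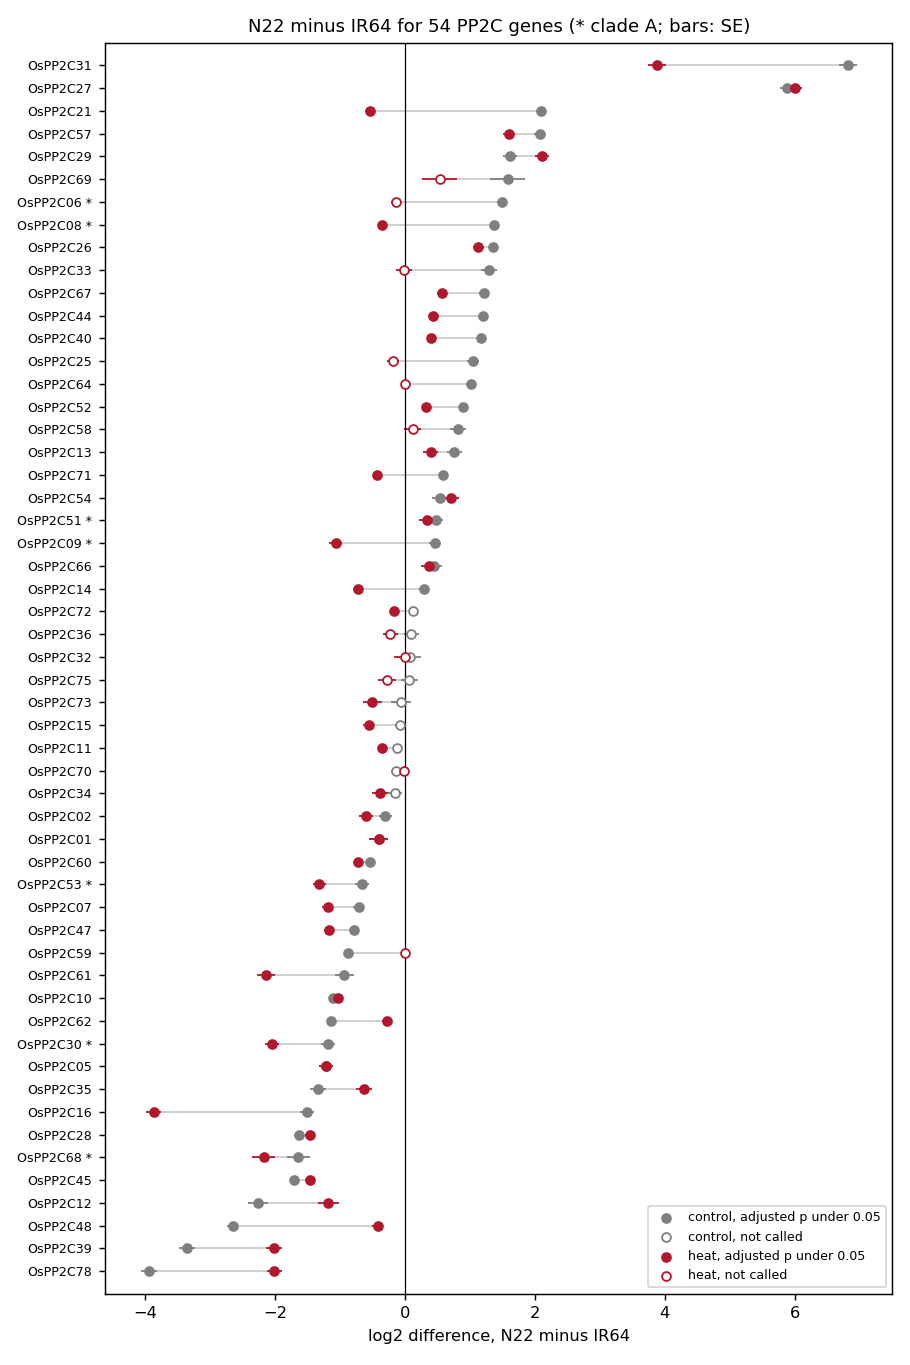
N22 minus IR64 (log2) for the 54 tested PP2C members in control (grey) and heat (red), with bars for the SE and open symbols for adjusted p of 0.05 or more. OsPP2C31, whose IR64 control values lie below background, and OsPP2C27 lie farthest to the right, OsPP2C78 and OsPP2C39 farthest to the left in control, and OsPP2C16 farthest to the left in heat. Scaling to the spike-ins moves the grey points to the left and the red points to the right, which gives 13 higher and 28 lower in control and 14 higher and 15 lower in heat.

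For some genes the probe sets disagreed. OsPP2C45 (LOC4337276) was lower in N22 by its brightest probe set, which read 10.79, 10.77 and 10.87 in IR64 control, 10.58, 10.44 and 10.47 in IR64 heat, 9.0, 9.09 and 9.23 in N22 control and 9.01, 8.97 and 9.13 in N22 heat. Its second probe set lay below background on 9 arrays and read 4.96, 5.71 and 5.14 in N22 heat, at least 2.10-fold higher than in IR64 heat. OsPP2C71 (LOC4348468) read 8.78, 8.86 and 8.77 in IR64 control, 9.87, 9.86 and 9.86 in IR64 heat, 9.30, 9.35 and 9.49 in N22 control and 9.37, 9.43 and 9.48 in N22 heat, a rise of 1.06 ± 0.06 in IR64 and a change of 0.05 ± 0.06 in N22. The IR64 rise of OsPP2C71 was not called with scaling to the spike-ins. The second, shared probe set of OsPP2C71 changed by 0.03 ± 0.09 in IR64 heat. In control it was lower in N22 (-0.49 ± 0.09) where the brightest was higher (0.58 ± 0.06).

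OsPP2C73 (LOC4349568, a shared probe set) read 6.87, 7.17 and 6.83 in IR64 control, 7.42, 7.20 and 6.90 in IR64 heat, 6.93, 6.70 and 7.05 in N22 control and 6.83, 6.63 and 6.56 in N22 heat. It was lower in N22 under heat (-0.50 ± 0.15, adjusted p = 0.014), while another of its probe sets was higher (0.78 ± 0.22, adjusted p = 0.010). OsPP2C66 (LOC4345947) differed by 0.45 ± 0.12 in control by its brightest probe set, and a second one lay between 2.29 and 2.92 in IR64 and between 6.22 and 7.25 in N22, at least 4.88-fold higher in control and at least 6.66-fold in heat. That gene was singled out after its values were seen. Which probe set follows the gene's main transcript in each cultivar was not tested.

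The partners of clade A did not move as a block. Of the 10 SnRK2 kinase genes, 5 rose, 4 fell and 1 was not called in IR64, and 5 rose, 2 fell and 3 were not called in N22, against 63.1% of all genes called, 29.6% up and 33.5% down, in each cultivar. SAPK9, read by a shared probe set, rose by 2.36 ± 0.08 in IR64 (adjusted p = 6.5e-09) against 0.21 ± 0.08 in N22 (adjusted p = 0.065), a difference of -2.16 ± 0.12. SAPK10 rose by 1.64 ± 0.19 in IR64 against -0.28 ± 0.19 in N22 (difference -1.92 ± 0.27, adjusted p = 0.00014). SAPK2, the kinase that binds OsPP2C30, fell by 1.19 ± 0.09 in IR64 and rose by 0.35 ± 0.09 in N22 (difference 1.54 ± 0.13). In all, the heat effect was lower in N22 for 3 of the kinases, higher for 5 and not called for 2, against 65.7% of all genes called.

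The only abscisic acid receptor gene with a name in the table, PYL11, fell by 0.33 ± 0.08 in IR64 and rose by 0.45 ± 0.08 in N22. ABA1, a zeaxanthin epoxidase of abscisic acid synthesis, fell by 1.57 ± 0.12 in IR64 and rose by 0.63 ± 0.12 in N22. ABA8ox2, an enzyme of its breakdown read by a shared probe set, rose by 0.46 ± 0.06 in IR64 and fell by 0.54 ± 0.06 in N22. ABA8ox1 was not called in either cultivar. Among the transcription factors downstream, BZIP23 rose by 1.55 ± 0.06 in IR64 and by 0.22 ± 0.06 in N22, a difference of -1.34 ± 0.08 (adjusted p = 3.5e-07). TRAB1 rose by 0.73 ± 0.06 in IR64 and was not called in N22 (-0.11 ± 0.06). VP1, a regulator of seed maturation, was below background in IR64, with means of 3.31 and 3.23, and fell by 1.02 ± 0.16 in N22, to a mean of 8.98.

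Among other signalling genes, 5 of 15 mitogen-activated protein kinase genes rose and 6 fell in IR64, and 5 rose and 7 fell in N22. Of 4 genes of type 2A phosphatase subunits, a separate phosphatase family, 2 rose and 2 fell in IR64, and 0 rose and 3 fell in N22. The shares over all genes are those given for the kinases. All of these changes are on the deposited scale, and the spike-in scaling lowers each IR64 change by 0.70 and raises each N22 change by 0.15.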

How the data were processed

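Gene expression was measured on 12 Affymetrix rice arrays, 3 in each of 4 groups set by cultivar and treatment in the labels. The authors deposited these as log2 values, 57381 probe sets per array, and GCRMA is the tool that the submitters' processing notes name. It removes background using probe sequence, equalises the arrays and merges probes into sets, so that a shift common to all genes of an array is lost. Its version is not given.

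The 123 control probe sets were left out. Probe sets above the table's median, 2.35, on at least 3 arrays were kept, 29803 in all. With limma 3.58.1 in R 4.3.3, 4 group means were estimated per probe set over all arrays (residual degrees of freedom 8, prior 1.79). From these came 5 contrasts, with two-sided tests adjusted by Benjamini-Hochberg over all kept probe sets. The model was checked on simulated data. If no array of a group exceeded the background of 4.20, a fold is a lower bound from the brighter group's mean to that level. That level was set with the data in view.

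Genes were named through the array annotation and the gene table of ASM3414082v1: 22436 probe sets paired with 1 gene, 95 with several and 34850 with none. No coordinates are given, since the build of the array annotation is not stated. Clade A is the usual phylogenetic group, and the pathway and marker lists were matched by symbol. The marker list for late pollen matched no gene in the table. Members and lists were chosen with earlier results of these data known. Genes with values per array are all of clade A, per heat contrast the 6 largest called rises and falls without overlap, for the difference the 6 largest each way, per cultivar contrast the 4 largest each way, and genes whose probe sets were called in opposite directions. Probe sets marked by the array maker as matching several genes or similar sequences are called shared.

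The labels do not tell whether the replicates are separate plants. The p-values therefore reflect only how far these samples spread, and that may be technical. Replicates correlated at r = 0.994 to 0.997, no arrays were identical, and 33.2% to 34.5% of probe sets per array lay above background. The small number of arrays limits the precision. Alternatives covered filters, normalisation, the test, the probe set used and each array left out. Scaling to the spike-ins was added after they were seen to move with heat in IR64.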

Additional observations from a re-analysis of the deposited data

Results flagged for a closer look

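By an interaction contrast in limma, heat effects were called different between the cultivars for 65.7% of all genes and 63.0% of the members. These were 34 of the 54 members, near the share of all genes. Those among clade A and among the 6 largest differences each way follow, as the heat effect in N22 minus that in IR64 on the log2 scale. In clade A the values were -1.73 for OsPP2C08, -1.63 for OsPP2C06, -1.53 for OsPP2C09, -0.85 for OsPP2C30 and -0.65 for OsPP2C53. Outside it, OsPP2C31 had -2.93, OsPP2C21 had -2.64 and OsPP2C16 had -2.36. With values raised to background, OsPP2C31 had -1.20 and OsPP2C16 had -1.62, both smaller than that of OsPP2C21. The effect was higher in N22 for OsPP2C48 (2.23), OsPP2C78 (1.93), OsPP2C39 (1.34), OsPP2C12 (1.08), OsPP2C59 (0.87) and OsPP2C62 (0.86), and with values raised to background OsPP2C12 had 0.67 and OsPP2C59 had 0.73. Beside them stand the values of the arrays themselves: the GAPDH 3′ minus 5′ signal rose by 3.15 from control to heat in IR64 and by 0.23 in N22, that of ubiquitin differed by 0.70 and -0.175, and the part of these in the differences was not tested. With 3 arrays per group, no test for single outlying arrays was made.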

How the results depend on the processing

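The counts of called members kept within 1.5 times of those reported under each of the other filters, normalisations, fits and probe set rules tried, the spike-in scaling excepted, and with each array left out. Leaving out 1 array at a time gave 34 to 39 members called in IR64 heat, 28 to 30 in N22 heat, 44 to 46 between cultivars in control, 38 to 43 in heat and 32 to 35 for the difference of the heat effects, with clade A at 5 to 7, 3, 7, 5 to 6 and 5 to 6. The replicate numbers did not pair the arrays (correlations of same-numbered deviations from -0.05 to 0.10), and a fit with the replicate block gave 37, 27, 45, 42 and 33 called. Quantile normalisation gave 41 for the difference, against 34. The alternative added after seeing the data, scaling to the hybridisation spike-ins, gave 16 members called in N22 heat against 30, and for clade A 3 against 5 in IR64 heat, 1 against 3 in N22 heat and 2 against 5 for the difference. Under it 73 of the 270 values (54 members in 5 comparisons) turned sign, and 0 of them were called both ways. Among the values of genes followed by the naming rule, 4 called ones turned: N22 minus IR64 in control became -0.13 for both OsPP2C09 and OsPP2C51, and the difference of the heat effects became 0.00083 for OsPP2C30 and 0.20 for OsPP2C53. That scaling subtracts from all genes of an array the deviation of a few probe sets whose SD over replicates reached 0.32 in IR64 control. For the 77 such values, over all settings, a value came to be called 17 times, lost its call without turning 16 times, and stayed on its side of the threshold 1777 times. The fit of only the groups compared cannot give the difference of the heat effects. Among the members, signal near background limits OsPP2C31, OsPP2C16, OsPP2C12, OsPP2C51, OsPP2C59, OsPP2C61, OsPP2C68 and OsPP2C69. OsPP2C51, below background on all 12 arrays, still counts as called higher in N22 in control and in heat. Its call in heat was lost in 5 of the 12 fits with an array left out. It was also lost without a filter on low values (adjusted p = 0.084), with quantile normalisation (adjusted p = 0.10) and with array weights (adjusted p = 0.071). Probe sets shared with other transcripts limit OsPP2C12, OsPP2C21, OsPP2C39, OsPP2C47 and OsPP2C73.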
